A study of Mus musculus with 19 samples.

Results

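The mitochondrially encoded transcripts are the RNAs made from the mitochondrial chromosome itself. They were chosen by name: of the 54146 genes listed in each RNA file, 37 had a symbol beginning with "mt-". These are 13 protein-coding genes, 2 ribosomal RNAs (rRNAs) and 22 transfer RNAs (tRNAs). The study removed the DNA methyltransferase genes Dnmt3a and Dnmt3b in mouse kidney, and RNA was sequenced from whole kidneys of 2 KspCre DKO mice and 3 control mice. All 5 mice were of strain B6C3F1/J and were taken on postnatal day 21. KspCre DKO (double knock-out) mice carried the floxed Dnmt3a and Dnmt3b alleles together with KspCre, a Cre recombinase driven by the promoter of Ksp-cadherin (Cdh16), a cell adhesion gene of the tubule epithelium. The control mice carried the same floxed alleles (Dnmt3ab f/f) without a Cre in their label. Blood vessels, stroma and glomerular cells of the whole kidney are not the cells this promoter marks.

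Each strand of mitochondrial DNA is transcribed as a long RNA that is then cut into single RNAs, mostly at the tRNAs that lie between the genes. The 13 proteins are core subunits of respiratory complexes I, III, IV and V, whose remaining subunits are encoded in the nucleus and imported. Kidney tubules, above all the proximal tubule and the thick ascending limb, are packed with mitochondria because salt and solute transport consumes much ATP. The nuclear genome also holds old copies of mitochondrial DNA, and short reads from a recent copy cannot be told from reads of the mitochondrial gene.

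The unit is TPM (a transcript's number among 1000000 transcripts), a level per transcript length that sums to the same total in every library, so that a large share taken by some genes lowers the TPM of all others. The read depth behind these values is unknown, and no counting interval can be given. Libraries were made from poly(A)-purified RNA, which does not retain mature tRNAs well and holds mitochondrial rRNAs only in part. KspCre DKO replicate 2 stands apart: 14710 genes were above 0 TPM in it, against 20510 in KspCre DKO replicate 1 and 18488 to 20075 in the controls. Its Pearson correlation of log2 levels with the other libraries, taken across genes, was 0.886 to 0.918, against 0.922 to 0.958 among the other 4. Dnmt3a stood at 9.98 and 14.2 TPM in KspCre DKO kidneys, against 13.2, 19.0 and 15.5 TPM in control kidneys. Dnmt3b stood at 2.29 and 3.25 TPM in KspCre DKO kidneys, against 1.82, 2.86 and 1.98 TPM in control kidneys. Neither differed by limma (adjusted p = 0.709 and 0.866), and a gene total that includes exons outside the deleted part does not check the labels, so the groups are the libraries labelled KspCre DKO and control. Tubule genes of the labelled tissue were abundant in all 5 libraries, with the summed proximal tubule list between 31951 and 49761 TPM and a skeletal muscle list at or below 0.35 TPM.

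Mitochondrially encoded RNA took 18.2% to 31.0% of all TPM per library, and this share was not separated between the groups. The share was 22.1% and 31.0% in KspCre DKO kidneys, against 18.2%, 23.2% and 20.5% in control kidneys. KspCre DKO replicate 2 was highest of the 5, while replicate 1 lay inside the control range, so the groups overlapped. The mean was 26.5% ± 6.32 in KspCre DKO kidneys (SD, n = 2) and 20.6% ± 2.51 in control kidneys (SD, n = 3), a difference of 5.88 percentage points with an exact two-sided permutation p of 0.3. The 5 libraries allow 10 splits, so the smallest p this test can give is 0.1. Without KspCre DKO replicate 2 the difference was 1.41 points, and without replicate 1 it was 10.3 points.

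**Figure D1:**
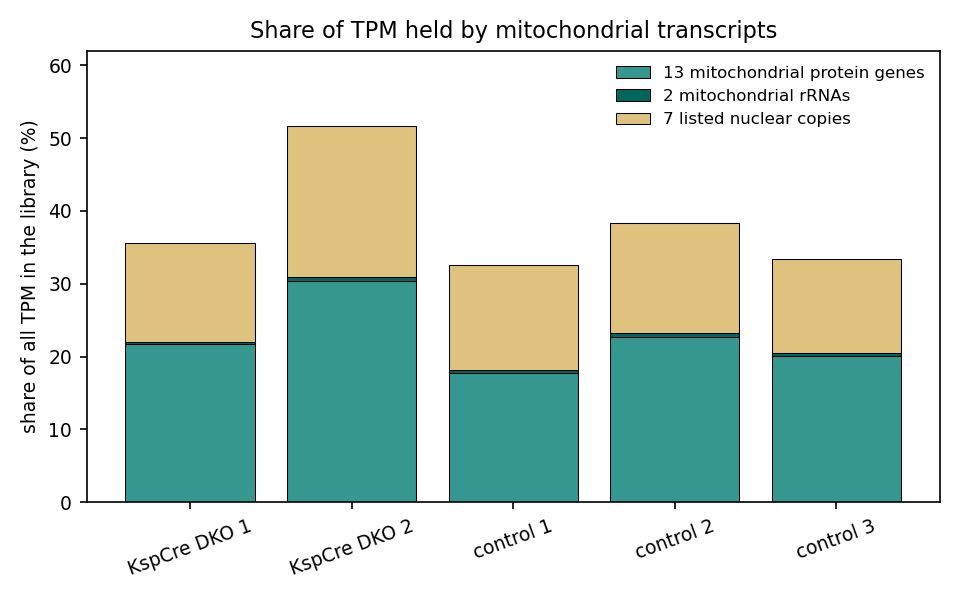
Stacked bars give the share of all TPM (vertical axis, percent) taken by the mitochondrial protein genes, the rRNAs and listed nuclear copies of mitochondrial DNA in each library (horizontal axis, KspCre DKO left of control). The mitochondrial share of 31.0% in KspCre DKO replicate 2 exceeds the other libraries, and replicate 1 at 22.1% sits between the controls at 18.2% and 23.2%.

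Nearly the whole of this share came from the protein genes, which took 21.7% and 30.4% of all TPM in KspCre DKO kidneys, against 17.7%, 22.7% and 20.1% in control kidneys. The 2 rRNAs took 0.323% and 0.579% in KspCre DKO kidneys, against 0.497%, 0.510% and 0.411% in control kidneys. Here the KspCre DKO libraries lie on either side of all controls. All 22 tRNA genes were listed at 0 in every library, and an exact 0 in such a file can be a failed estimate.

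A second pool of RNA with mitochondrial sequence was assigned to nuclear loci. A list of 7 predicted genes known as nuclear copies, drawn up from general knowledge of the mouse genome, took 13.5% and 20.7% of all TPM in KspCre DKO kidneys, against 14.4%, 15.2% and 12.9% in control kidneys. They made up 38.0% and 40.1% of the mitochondrial and copy TPM together in KspCre DKO kidneys, against 44.1%, 39.5% and 38.6% in control kidneys, with overlap. With the copies added, the joint share was 35.6% and 51.7% in KspCre DKO kidneys, against 32.6%, 38.4% and 33.4% in control kidneys (exact permutation p = 0.3). Again only replicate 2 exceeded all controls, with most of its TPM in these genes.

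In the fit over the 13963 genes that averaged 1 TPM or more, none of the 15 protein genes and rRNAs passed limma's threshold of adjusted p below 0.05, by which 0.165% of all tested genes were called (0.1% higher and 0.0645% lower in KspCre DKO). None had an unadjusted p below 0.05 either, against 1440 of all tested genes. By sign, 10 sit higher and 5 lower in KspCre DKO kidneys, with limma adjusted p of 0.503 to 0.966. Their median log2 fold change was 0.28, against -0.14 over all tested genes. In 2 of the 15, both higher in KspCre DKO, the groups did not overlap. Of all tested genes, 26.1% were without overlap in either direction and 10.5% were so with KspCre DKO higher. Fold changes are differences of mean log2(TPM + 1), KspCre DKO minus control. Leaving out KspCre DKO replicate 2 turns the balance of directions to 5 higher and 10 lower, and leaving out replicate 1 gives 12 higher and 3 lower with mt-Nd3 and mt-Nd4l called higher.

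**Figure D2:**
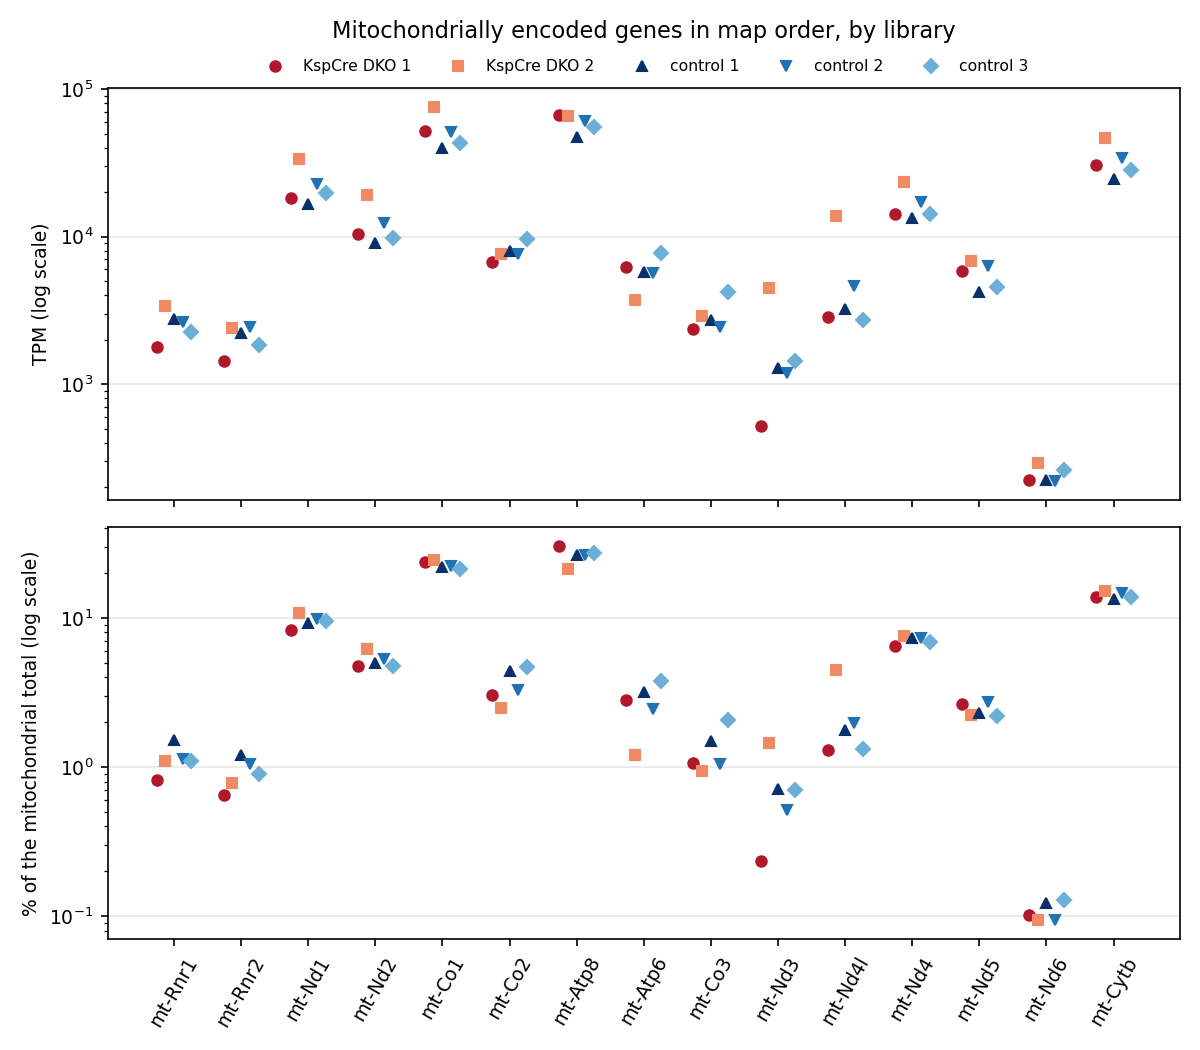
TPM on a log axis (vertical) of the 13 protein genes and 2 rRNAs in the order they lie on the mitochondrial chromosome (horizontal), one point per library. KspCre DKO replicate 2 has the widest departures, at mt-Nd3 (4482 TPM against 1192 to 1433 TPM in control) and mt-Nd4l (13755 TPM against 2717 to 4611 TPM in control).

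The order of levels was largely fixed. Averaged over the 5 libraries, mt-Atp8 stood first with 59430 TPM, followed by mt-Co1 with 52565, mt-Cytb with 32839, mt-Nd1 with 22152, mt-Nd4 with 16464 and mt-Nd2 with 12132 TPM. Then came mt-Co2 with 7910, mt-Atp6 with 5817, mt-Nd5 with 5557, mt-Nd4l with 5431, mt-Co3 with 2935, mt-Rnr1 with 2570, mt-Rnr2 with 2071, mt-Nd3 with 1784 and mt-Nd6 with 244 TPM. These are assigned TPM and need not follow the number of RNA molecules. mt-Atp8 and mt-Atp6 lie on the same RNA, yet their means were 59430 and 5817 TPM. How reads were divided between mitochondrial genes and the nuclear copies was not tested. The ranges of neighbours in this order overlapped in every case but the last, mt-Nd3 and mt-Nd6. mt-Cytb, mt-Nd1, mt-Nd4, mt-Nd2 and, in last place, mt-Nd6 each held their place in every single library. mt-Atp8 led in 4 of 5 libraries, and mt-Co1 led in KspCre DKO replicate 2. The highest library exceeded the lowest 8.62-fold for mt-Nd3 and 5.06-fold for mt-Nd4l, and 1.33- to 2.10-fold for the other 13.

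Complex I, NADH dehydrogenase, takes electrons from NADH and has 7 subunits encoded in mitochondria. On the mitochondrial chromosome (assembly GRCm38.p6, RefSeq positions) mt-Nd1 spans 2751 to 3707, mt-Nd2 3914 to 4951, mt-Nd3 9459 to 9806, mt-Nd4l 9877 to 10173, mt-Nd4 10167 to 11544, mt-Nd5 11742 to 13565 and mt-Nd6 13552 to 14070. mt-Nd1 had 18395 and 33371 TPM in KspCre DKO kidneys, against 16716, 22634 and 19642 TPM in control kidneys (log2 fold change 0.34 ± 0.28 SE, limma adjusted p = 0.700). KspCre DKO replicate 1 was inside the control range and replicate 2 above it, and the same held for mt-Nd2 and mt-Nd4. mt-Nd2 had 10442 and 19050 TPM in KspCre DKO kidneys, against 9072, 12364 and 9734 TPM in control kidneys, and mt-Nd4 14325 and 23323 TPM against 13413, 17115 and 14145 TPM. mt-Nd5 had 5853 and 6873 TPM in KspCre DKO kidneys, against 4207, 6330 and 4521 TPM in control kidneys. mt-Nd6, which is the single protein gene read from the other strand, had 224.5 and 292.3 TPM in KspCre DKO kidneys, against 222.0, 220.0 and 263.4 TPM in control kidneys. It lies on the opposite strand to mt-Nd5 and overlaps it by 14 bases, and whether strand was used in counting is not given in the sources used here.

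The 2 short complex I genes departed most between the KspCre DKO kidneys themselves. mt-Nd3 had 519.8 and 4482 TPM in KspCre DKO kidneys, against 1295, 1192 and 1433 TPM in control kidneys. One KspCre DKO library lies below all controls and the other above them. The log2 fold change was 0.23 with an SE of 0.72 (limma adjusted p = 0.935). It was -1.32 without replicate 2, and 1.78 without replicate 1, where limma called it with an adjusted p of 0.0368 (0.0368 to 0.997 over all 15 alternatives). mt-Nd4l had 2860 and 13755 TPM in KspCre DKO kidneys, against 3209, 4611 and 2717 TPM in control kidneys. Replicate 1 lies within the control range and replicate 2 far above it. The log2 fold change was 0.87 ± 0.57 SE (limma adjusted p = 0.635), -0.26 without replicate 2 and 2.005 without replicate 1 with an adjusted p of 0.0455 (0.0455 to 0.997 over all 15 alternatives). In the fit without replicate 1, 3.97% of all tested genes were called in either direction and 0.637% higher.

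Complex III passes electrons to cytochrome c, and its single mitochondrial subunit is cytochrome b (mt-Cytb, 14145 to 15288). It had 30539 and 46837 TPM in KspCre DKO kidneys, against 24471, 34138 and 28211 TPM in control kidneys (log2 fold change 0.40 ± 0.24 SE, limma adjusted p = 0.612). Replicate 1 was inside the control range and replicate 2 above it.

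Complex IV, cytochrome c oxidase, reduces oxygen to water with a catalytic core of 3 mitochondrial subunits. mt-Co1 (5328 to 6872), which carries the oxygen-reducing centre, had 52108 and 75762 TPM in KspCre DKO kidneys, against 40109, 51464 and 43381 TPM in control kidneys. Both KspCre DKO libraries were above all controls, replicate 1 by a small margin, and the log2 fold change of 0.49 ± 0.22 (SE) did not pass (limma adjusted p = 0.503, the smallest of the 15). mt-Co2 (7013 to 7696), which receives electrons from cytochrome c, had 6695 and 7656 TPM in KspCre DKO kidneys, against 7980, 7606 and 9612 TPM in control kidneys (log2 fold change -0.22 ± 0.20 SE, limma adjusted p = 0.730). mt-Co3 (8607 to 9390), the remaining core subunit, had 2347 and 2896 TPM in KspCre DKO kidneys, against 2740, 2450 and 4242 TPM in control kidneys. For both genes the groups overlapped.

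Complex V is the ATP synthase, and its 2 mitochondrial subunits belong to the membrane part that protons pass. mt-Atp8 (7766 to 7969) had 66767 and 66012 TPM in KspCre DKO kidneys, against 47739, 61235 and 55395 TPM in control kidneys. Both KspCre DKO libraries were above all controls, and the log2 fold change of 0.28 ± 0.18 (SE) did not pass (limma adjusted p = 0.634). mt-Atp6 (7927 to 8607) overlaps mt-Atp8 by 43 bases on the same RNA and had 6193 and 3736 TPM in KspCre DKO kidneys, against 5765, 5695 and 7698 TPM in control kidneys. Replicate 1 was inside the control range and replicate 2 below it (log2 fold change -0.39 ± 0.27 SE, limma adjusted p = 0.654).

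The 2 rRNAs form the core of the mitochondrial ribosome. mt-Rnr1 (70 to 1024, the small subunit rRNA) had 1798 and 3380 TPM in KspCre DKO kidneys, against 2766, 2650 and 2257 TPM in control kidneys. mt-Rnr2 (1094 to 2675, the large subunit rRNA) had 1435 and 2408 TPM in KspCre DKO kidneys, against 2207, 2451 and 1854 TPM in control kidneys. KspCre DKO replicate 1 was lowest of the 5 for both, and replicate 2 was highest for mt-Rnr1 and within the control range for mt-Rnr2. The fold changes were -0.05 ± 0.29 and -0.21 ± 0.27 SE on the log2 scale (limma adjusted p = 0.966 and 0.818).

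Balance within the mitochondrial total does not depend on how large that total is. As a percentage of it, 1 of the 15 genes lay without overlap higher in KspCre DKO kidneys and 3 lay lower. Of all tested genes expressed relative to the same total, 3.5% lay higher and 21.2% lower without overlap. Most tested genes are not parts of that total, so this background is not a like reference for the 15. No difference is read from 3 of 15 lower. mt-Co1 made up 23.6% and 24.5% of the mitochondrial total in KspCre DKO kidneys, against 22.0%, 22.2% and 21.2% in control kidneys (exact permutation p = 0.1, the smallest possible). It was the only one of the 15 to reach that p, and no difference is read from 1 of 15. mt-Co2 made up 3.04% and 2.47% in KspCre DKO kidneys, against 4.39%, 3.28% and 4.69% in control kidneys (exact permutation p = 0.2). Together, the rRNAs made up 1.47% and 1.87% in KspCre DKO kidneys, against 2.73%, 2.197% and 2.005% in control kidneys, lower in 2 of 2 libraries (exact permutation p = 0.2).

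No respiratory complex was separated between the groups in its part of the total, and the largest departures were in KspCre DKO replicate 2. Complex I genes made up 23.9% and 32.6% of the mitochondrial total in KspCre DKO kidneys, against 26.5%, 27.8% and 25.6% in control kidneys. Complex V genes made up 33.1% and 22.5% in KspCre DKO kidneys, against 29.4%, 28.8% and 30.8% in control kidneys. In both, the KspCre DKO libraries fall on opposite sides of all controls. Complex IV genes made up 27.7% and 27.9% in KspCre DKO kidneys, against 27.9%, 26.5% and 27.9% in control kidneys, and mt-Cytb of complex III 13.8% and 15.1% against 13.5%, 14.7% and 13.8%. Exact permutation p was 0.8 for complexes I and V, 0.5 for complex III and 1 for complex IV.

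The departures of mt-Nd4l and mt-Atp6 in replicate 2 sat beside opposite ones in 2 nuclear copies. Of the 7 listed copies, RefSeq places 2, both on chromosome 1. Gm10925 (24613971 to 24614651 on chromosome 1) spans 681 bases, as long as mt-Atp6, whose symbol RefSeq lists as a synonym. Gm10222 (24612404 to 24612700) spans 297 bases, as long as mt-Nd4l, and lies in the stretch where a copy of that gene falls if the order of the mitochondrial chromosome is kept. The other 5 are not placed, and no mitochondrial counterpart is given to them here.

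Gm10925 had 26512 and 53049 TPM in KspCre DKO kidneys, against 25813, 33397 and 25959 TPM in control kidneys, well above mt-Atp6 in every library. Gm10222 had 12192 and 5944 TPM in KspCre DKO kidneys, against 8281, 9362 and 8670 TPM in control kidneys. In KspCre DKO replicate 2, Gm10925 is highest where mt-Atp6 is lowest, and Gm10222 is lowest where mt-Nd4l is highest. The ratio of Gm10222 to mt-Nd4l was 4.26 and 0.432 in KspCre DKO kidneys, against 2.58, 2.03 and 3.19 in control kidneys. The ratio of Gm10925 to mt-Atp6 was 4.28 and 14.2 in KspCre DKO kidneys, against 4.48, 5.86 and 3.37 in control kidneys.

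Each copy was also added to its mitochondrial gene and the sum set against the neighbouring gene. These pairs were chosen after their values were seen. mt-Nd4l and mt-Nd4 overlap by 7 bases and are kept on one mRNA, so their ratio compares 2 parts of the same molecule. The mt-Nd4l to mt-Nd4 ratio of TPM was 0.200 and 0.590 in KspCre DKO kidneys, against 0.239, 0.269 and 0.192 in control kidneys. With Gm10222 added to mt-Nd4l it was 1.05 and 0.845 in KspCre DKO kidneys, against 0.857, 0.816 and 0.805 in control kidneys. The highest library exceeded the lowest 3.07-fold without the copy and 1.31-fold with it. The mt-Atp6 to mt-Atp8 ratio was 0.0928 and 0.0566 in KspCre DKO kidneys, against 0.121, 0.0930 and 0.139 in control kidneys. With Gm10925 added to mt-Atp6 it was 0.490 and 0.860 in KspCre DKO kidneys, against 0.661, 0.638 and 0.608 in control kidneys. Here the KspCre DKO libraries stay far apart, and replicate 2 is the lowest library without the copy and the highest with it. The sum of mt-Nd4l and Gm10222 was 15052 and 19699 TPM in KspCre DKO kidneys, against 11491, 13973 and 11387.5 TPM in control kidneys. The groups did not overlap (exact permutation p = 0.1, the smallest possible), as in 10.5% of all tested genes with KspCre DKO higher. For mt-Atp6 and Gm10925 the sum was 32705 and 56785 TPM against 31578, 39092 and 33657 TPM, with overlap. How reads were divided between a gene and its copy was not tested, and the levels of mt-Nd4l and mt-Atp6 alone are uncertain. The other listed copies have no counterpart given here, so which other mitochondrial genes share reads with them is unknown. The order of levels and the balance among the genes carry the same limit.

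**Figure D3:**
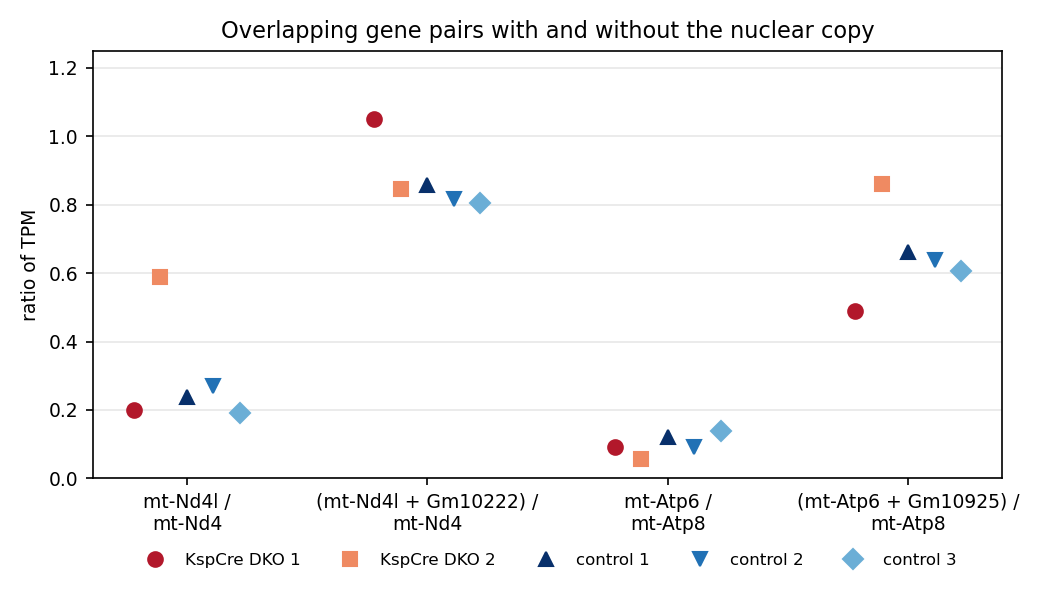
Ratio of TPM (vertical axis) for pairs of genes that share one mitochondrial mRNA, without and with the nuclear copy added, one point per library. With Gm10222 added, the mt-Nd4l to mt-Nd4 ratio was 0.845 to 1.05 in KspCre DKO and 0.805 to 0.857 in control. With Gm10925 added, the mt-Atp6 to mt-Atp8 ratio was 0.490 and 0.860 in KspCre DKO and 0.608 to 0.661 in control.

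The remaining copies also did not pass the test. Gm28437 had 35219 and 54301 TPM in KspCre DKO kidneys, against 35365, 40322 and 32966 TPM in control kidneys, and Gm28661 39267 and 65829 TPM against 43257, 50030 and 42037 TPM. Gm28438 had 11273 and 17238 TPM in KspCre DKO kidneys, against 16594, 17731 and 15956 TPM in control kidneys. Gm29216 was the most uneven among the controls, with 10605 and 10950 TPM in KspCre DKO kidneys, against 14327, 928.0 and 3349 TPM in control kidneys. Gm28439 was listed at 0 throughout, and limma's adjusted p for the 6 tested copies was 0.589 to 0.972.

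Respiratory complexes need mitochondrial and nuclear subunits together, so the mitochondrial level was set beside that of the nuclear subunits of the same complex. All 69 nuclear subunits tested for complexes I, III, IV and V were lower in KspCre DKO kidneys by the sign of the fold change, as were 61.7% of all tested genes, and 1 of the 69 passed the test. In 59 of the 69 the groups did not overlap, against 15.6% of all tested genes without overlap in that direction. Their median log2 fold change was -0.74, against -0.14 over all tested genes. Apart from Atp5e, none of the 69 passed limma's threshold.

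Atp5e, the epsilon subunit of ATP synthase, fell to 519.0 and 618.1 TPM in KspCre DKO kidneys, against 1780, 1635 and 2081 TPM in control kidneys. The groups are wide apart, and the log2 fold change was -1.68 with an SE of 0.23 (limma adjusted p = 0.0462). That call is at the edge: 5 of 15 alternatives kept it and 10 lost it, with adjusted p of 0.0228 to 0.356, and among libraries it was lost without KspCre DKO replicate 2 (0.167) and without control replicate 1, 2 or 3 (0.0776, 0.202 and 0.241).

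The other nuclear subunits did not pass. Of complex I, 31 of 31 were lower with a median of -0.68 on the log2 scale. Its Ndufab1, the acyl carrier protein, had 347.4 and 246.3 TPM in KspCre DKO kidneys, against 576.0, 569.9 and 614.7 TPM in control kidneys (limma adjusted p = 0.200). Of complex III, 9 of 9 were lower with a median of -0.68, among them Uqcr10, a small accessory subunit, with 878.6 and 599.6 TPM in KspCre DKO kidneys, against 1453, 1101 and 1607 TPM in control kidneys. Of complex IV, 12 of 12 tested were lower with a median of -0.87. Its Cox6c, another small accessory subunit, had 1109 and 877.3 TPM in KspCre DKO kidneys, against 1872, 1624 and 2032 TPM in control kidneys. Of complex V, 17 of 17 tested were lower with a median of -0.74, among them Atp5o, the stalk subunit OSCP, with 584.6 and 422.0 TPM in KspCre DKO kidneys, against 905.5, 891.5 and 1107 TPM in control kidneys. Each of these examples was the member of smallest p in its list, Atp5o after Atp5e. That both KspCre DKO libraries lie below all controls in each follows from this choice. KspCre DKO lay lower without overlap in 29 of 31 complex I and 6 of 9 complex III subunits. In complexes IV and V this held for 10 of 12 and 14 of 17, against 15.6% of all tested genes.

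**Figure D4:**
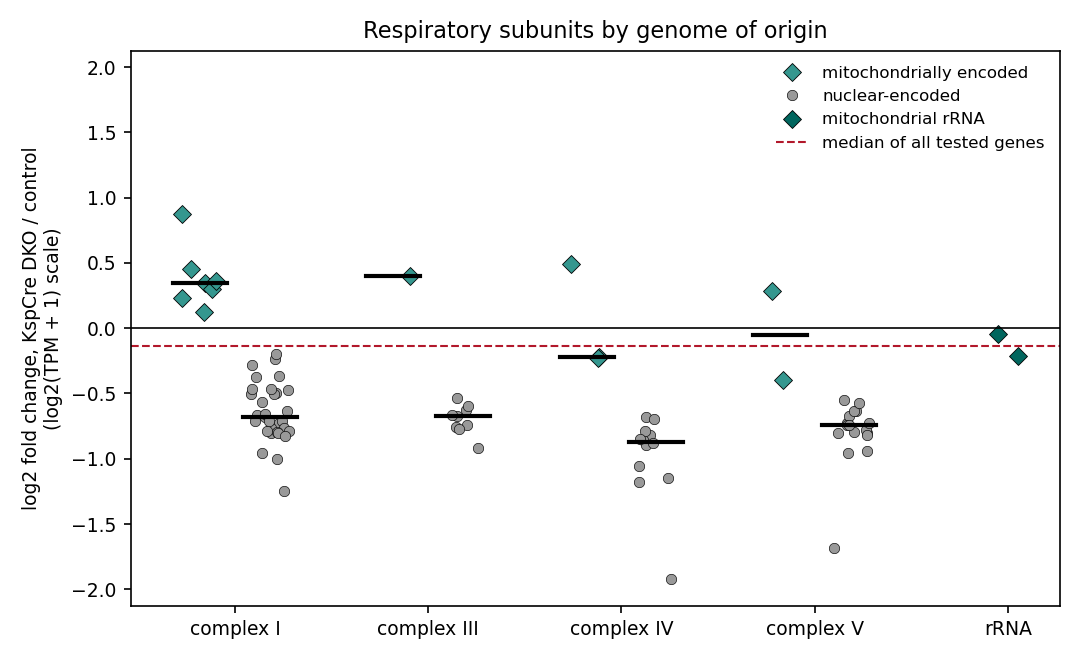
Log2 fold change, KspCre DKO minus control, of log2(TPM + 1) (vertical axis) for mitochondrially encoded and nuclear-encoded subunits of complexes I, III, IV and V and for the 2 mitochondrial rRNAs (horizontal axis), one point per gene, with black bars at medians and a dashed line at the median of all tested genes (-0.14). The 69 nuclear subunits all lie below 0 with a median of -0.74, whereas mitochondrially encoded ones lie on both sides of 0.

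Because TPM are shares, a high mitochondrial level pulls down the TPM of nuclear genes. After rescaling to the sum of non-mitochondrial genes, the median of the nuclear subunits was -0.63 and 69 of 69 remained lower, with the median of all tested genes at -0.04. After rescaling to genes that are neither mitochondrial nor listed copies, a choice made after seeing the data, 68 of 69 were lower with a median of -0.51, the median of all tested genes was 0.06, and 13 of the 15 mitochondrial genes had a positive fold change in place of 10. Without KspCre DKO replicate 2, 67 of 69 were lower with a median of -0.46, against 0.13 over all tested genes.

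The ratio of mitochondrial to nuclear subunit TPM within a library is free of such scaling, and it did not overlap between the groups. Such separation also occurs among other genes. Set over the mitochondrial total, 21.2% of all tested genes lay lower in KspCre DKO without overlap. That share counts single genes and is not a like reference for a ratio of sums. Summed over the 4 complexes the ratio was 6.002 and 11.3 in KspCre DKO kidneys, against 3.26, 4.86 and 3.40 in control kidneys. Both KspCre DKO libraries were above all controls, with a difference of 1.12 in mean log2 ratio and an exact permutation p of 0.1, the smallest possible. Leaving out 1 library at a time gave 0.67 (without KspCre DKO replicate 2) to 1.58 (without replicate 1). Of the sums behind it, the nuclear one was 36202 and 26995 TPM in KspCre DKO kidneys, against 54196, 46767 and 59030 TPM in control kidneys, without overlap. The mitochondrial sum was 217269 and 304046 TPM in KspCre DKO kidneys, against 176939, 227055 and 200994 TPM in control kidneys, with overlap.

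Each complex taken alone showed the same order. For complex I the ratio was 5.23 and 12.5 in KspCre DKO kidneys, against 3.38, 5.04 and 3.31 in control kidneys. For complex III it was 5.93 and 12.2 in KspCre DKO kidneys, against 3.17, 5.45 and 3.44 in control kidneys. For complex IV it was 7.63 and 14.7 in KspCre DKO kidneys, against 4.32, 5.36 and 4.27 in control kidneys. The complex V ratio was 5.62 and 7.55 in KspCre DKO kidneys, against 2.62, 4.12 and 2.92 in control kidneys. KspCre DKO replicate 1 clears the highest control, replicate 2, by a small margin in complexes I and III and by a wide one in complexes IV and V. The differences in mean log2 ratio were 1.08, 1.13, 1.20 and 1.04 for complexes I, III, IV and V, with an exact permutation p of 0.1 for each but complex III, where it was 0.2.

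**Figure D5:**
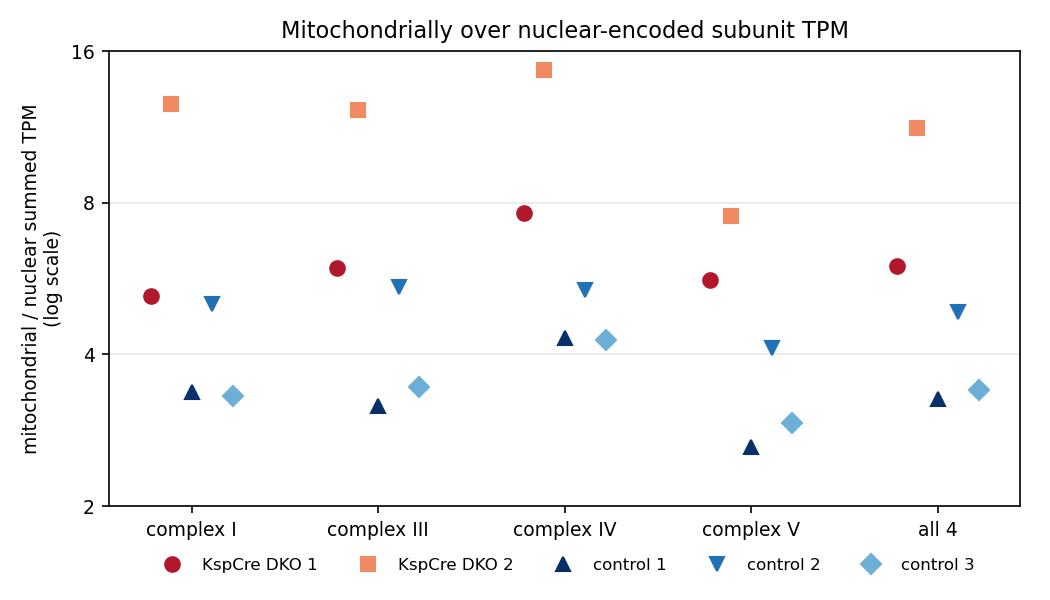
Ratio of summed mitochondrially encoded to summed nuclear-encoded subunit TPM (vertical axis) for complexes I, III, IV and V and for the 4 together, one point per library, KspCre DKO left of control. For the 4 together the KspCre DKO libraries sit at 6.002 and 11.3 and the controls between 3.26 and 4.86.

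Summed markers of some tubule cell types also differed between the groups, and their part in the ratio was not tested. In bulk tissue, fewer cells of a type and less RNA per cell cannot be told apart. The 10 thick ascending limb markers all had a lower mean in KspCre DKO kidneys, none called, with a summed level of 1354 and 798.4 TPM in KspCre DKO kidneys, against 2590, 2867 and 2955 TPM in control kidneys. Its defining salt transporter Slc12a1 had 191.4 and 61.3 TPM in KspCre DKO kidneys, against 394.0, 561.7 and 519.3 TPM in control kidneys. The 5 distal convoluted tubule markers (2 higher, 3 lower by sign) summed to 1957 and 2503 TPM in KspCre DKO kidneys, against 4301, 3529 and 3976 TPM in control kidneys, but S100g made up 83.5% to 93.7% of that sum. Without S100g the sum was 322.9 and 255.9 TPM in KspCre DKO kidneys, against 331.2, 222.9 and 269.6 TPM in control kidneys, with overlap. The defining salt transporter of that segment, Slc12a3, was higher in both KspCre DKO libraries, with 230.7 and 180.7 TPM in KspCre DKO kidneys, against 154.6, 132.8 and 126.7 TPM in control kidneys (limma adjusted p = 0.498). The proximal tubule markers (8 higher, 9 lower of 17 tested) summed to 33030 and 31951 TPM in KspCre DKO kidneys, against 49761, 37232 and 40134 TPM in control kidneys, with 65.9% to 84.8% of the sum from Kap. Without Kap the sum was 11255 and 5440 TPM in KspCre DKO kidneys, against 8999, 7203 and 6113 TPM in control kidneys, with overlap. The 9 principal cell markers of the collecting duct (6 higher, 3 lower) summed to 2559 and 2547 TPM in KspCre DKO kidneys, against 1059, 1130 and 1085 TPM in control kidneys. Thick ascending limb sums were lower, and principal cell sums higher, in both KspCre DKO libraries than in all controls, also without the most abundant gene of each list (Wfdc15b and Aqp2). The sums of podocyte, endothelial and stromal markers overlapped. Without Col3a1, the most abundant gene of its list, the stromal sum was lower without overlap. It was 37.8 and 52.9 TPM in KspCre DKO kidneys, against 84.0, 53.4 and 89.0 TPM in control kidneys. Urothelial markers (4 higher, 2 lower) summed to 402.8 and 264.1 TPM in KspCre DKO kidneys, against 140.6, 71.0 and 94.7 TPM in control kidneys. Psca made up 38.0% to 78.5% of that sum. Without Psca it was 86.4 and 84.7 TPM in KspCre DKO kidneys, against 69.6, 42.4 and 58.7 TPM in control kidneys, without overlap. Macrophage markers summed to 42.7 and 30.1 TPM in KspCre DKO kidneys, against 97.5, 50.7 and 78.6 TPM in control kidneys. Intercalated cell markers summed to 236.8 and 177.1 TPM in KspCre DKO kidneys, against 249.9, 276.5 and 260.8 TPM in control kidneys, and fat markers, of which Fabp4 makes up nearly all, to 91.2 and 75.9 TPM against 219.1, 191.8 and 318.0 TPM. Without their most abundant gene, Atp6v1g3 and Fabp4, the sums of both lists overlapped between the groups. Red cell markers summed to 8504 and 9899 TPM in KspCre DKO kidneys, against 8330, 983.1 and 3492 TPM in control kidneys. No marker of any of these lists was called.

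Nuclear genes that serve the mitochondrial genome showed no called member. These lists, like the members, were drawn up with earlier results of these data known. Of 18 genes for replication and transcription of mitochondrial DNA, 6 were higher and 12 lower by sign (median -0.18 on the log2 scale, against -0.14 over all tested genes). Tefm, the transcription elongation factor, had 8.91 and 4.71 TPM in KspCre DKO kidneys, against 13.5, 15.3 and 13.9 TPM in control kidneys (limma adjusted p = 0.343). Tfam, which packages mitochondrial DNA and starts its transcription, had 12.3 and 8.32 TPM in KspCre DKO kidneys, against 19.5, 13.8 and 13.6 TPM in control kidneys (limma adjusted p = 0.590). Polrmt, the RNA polymerase, had 44.7 and 102.6 TPM in KspCre DKO kidneys, against 29.9, 38.9 and 65.2 TPM in control kidneys, with overlap. Tefm and Tfam were lower in both KspCre DKO libraries than in all controls and Polrmt was not separated. Of the 18, 4 lay lower and 1 (Tfb1m) higher without overlap, against 15.6% and 10.5% of all tested genes.

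Of 35 genes for processing and stability of mitochondrial RNA, 9 were higher and 26 lower by sign (median -0.29). Slirp, which together with Lrpprc protects mitochondrial mRNAs, had 38.7 and 15.4 TPM in KspCre DKO kidneys, against 51.3, 46.4 and 56.5 TPM in control kidneys (limma adjusted p = 0.405). Fastkd2, an RNA-binding protein tied to the large rRNA, had 17.5 and 4.58 TPM in KspCre DKO kidneys, against 28.1, 31.6 and 35.8 TPM in control kidneys (limma adjusted p = 0.269). Both lie below all controls, whereas Lrpprc itself overlapped, with 17.8 and 6.97 TPM in KspCre DKO kidneys, against 16.9, 13.3 and 12.2 TPM in control kidneys. In 9 of the 35 KspCre DKO lay lower without overlap, against 15.6% of all tested genes. Of 28 tested translation factors and tRNA synthetases, 5 were higher and 23 lower (median -0.35).

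Of 73 mitochondrial ribosomal proteins, 6 were higher and 67 lower by sign (median -0.42), where 61.7% of all tested genes were lower. In 31 of the 73 KspCre DKO lay lower without overlap, against 15.6% of all tested genes. Mrpl42 had 176.6 and 161.0 TPM in KspCre DKO kidneys, against 265.3, 279.9 and 300.4 TPM in control kidneys (limma adjusted p = 0.324). Complex II, which has no mitochondrially encoded subunit, had 4 of 4 lower (median -0.48) and the groups overlapped in all 4. Among other mitochondrial proteins, 9 of 9 were lower (median -0.52), for example citrate synthase (Cs), with 84.0 and 65.5 TPM in KspCre DKO kidneys, against 105.4, 95.1 and 126.6 TPM in control kidneys. Of 7 regulators of mitochondrial biogenesis, 1 was higher and 6 lower (median -0.35). Its best known member Ppargc1a had 9.77 and 3.91 TPM in KspCre DKO kidneys, against 8.51, 15.3 and 14.04 TPM in control kidneys, with overlap.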

How the data were processed

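Whole-kidney RNA of 2 KspCre DKO and 3 control mice was poly(A)-purified and made into TruSeq libraries, per the labels' protocols. The deposited values are TPM per gene. STAR 2.2.1, RSEM 1.3.1, Trim Galore 0.5.0 and build mm10 are named without roles, per the submitters' processing notes, and annotation, strand setting and depth are not stated there. Of the 54146 gene identifiers, 52480 (96.9%) were paired with a symbol. limma 3.58.1 (R 4.3.3, empirical Bayes with trend) was run on log2(TPM + 1) for the 13963 genes that averaged 1 TPM or more, adjusted by Benjamini-Hochberg, and called at adjusted p below 0.05. Single values were compared by exact two-sided permutation. The fit was tested on 10 simulated sets with 200 changed genes each. Those changes were larger than the members' and no simulated library stood apart, so changes of the members' size were not checked. The members and lists were chosen with earlier results of these data known. All members and copies, and per list each called member or the 3 of smallest p, could be named; Tfam, Polrmt, Lrpprc, Ppargc1a and Slc12a1 were named besides. Labels do not say how animals relate, so a p-value reflects only how far these libraries spread, which may be technical. Bisulfite libraries were not used here. Alternatives changed the pseudocount, filter, scaling, trend, weights, replicate block and libraries.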

Additional observations from a re-analysis of the deposited data

How the results depend on the processing

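The number of mitochondrial genes called (0) changed only when a library was left out (0 to 2 higher), and the mitochondrial share, the rRNA balance and the mitochondrial to nuclear ratios kept their direction under every alternative run. Over all genes, 14 called higher became 7 with pseudocount 0.1, 28 with pseudocount 5, 3 without the filter, 23 with median-of-ratios scaling, 25 when rescaled to non-mitochondrial genes, 38 when copies were left out too, 6 without the trend, 3 with array weights, and 3 to 89 without 1 library. The 9 called lower became 1 without the filter, 3 without the trend, 2 with array weights, and 1 to 466 without 1 library. The 1 list member called lower (Atp5e) became 0 with pseudocount 0.1, without the filter, with median-of-ratios scaling, with copies left out, without the trend and with array weights, and 0 to 17 without 1 library. With a replicate block 47 genes were called higher and 28 lower, and mt-Co3 changed sign (0.0090). Whether the numbers pair the samples is not known. Same-numbered libraries had correlations of 0.093 and 0.028 in their deviations, and only 2 numbers are shared. With 2 KspCre DKO libraries the deviations of one mirror those of the other, so these correlations cannot decide it. Fold changes near 0 reversed with scaling: mt-Rnr1 was 0.075 with median-of-ratios scaling, 0.065 when rescaled to non-mitochondrial genes and 0.18 when copies were left out too, where mt-Co2 was 0.0014 and mt-Rnr2 0.00996. Without 1 library at a time, log2 fold changes ran from -0.085 to 0.77 (mt-Nd1), -1.32 to 1.78 (mt-Nd3), -0.26 to 2.005 (mt-Nd4l), -0.048 to 0.66 (mt-Nd4), -0.062 to 0.32 (mt-Nd6), -0.39 to 0.0090 (mt-Co3), -0.50 to 0.41 (mt-Rnr1), -0.59 to 0.16 (mt-Rnr2), -0.088 to 0.91 (Gm10925) and -0.035 to 0.59 (Gm28437). The balance differences ran from -2.74 to 6.04 points for complex I, -0.12 to 1.15 for complex III, -0.13 to 0.59 for complex IV and -7.16 to 3.42 for complex V. The cause was not tested. Depth is unknown, and 2 KspCre DKO libraries limit each comparison.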

Other observations

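Lars2, the mitochondrial leucyl-tRNA synthetase, was the member of smallest p in the list of translation factors and tRNA synthetases. It had 286.7 and 256.2 TPM in KspCre DKO kidneys, against 535.3, 842.3 and 524.1 TPM in control kidneys, lower in 2 of 2 libraries (log2 fold change -1.19 ± 0.28 SE, limma adjusted p = 0.188). Gm42418, a predicted gene, was also lower in both KspCre DKO libraries than in all controls, with 4526 and 3279 TPM in KspCre DKO kidneys, against 6905, 11673 and 7420 TPM in control kidneys (log2 fold change -1.13 ± 0.28 SE, limma adjusted p = 0.210). In both, control replicate 2 was the highest library. Neither passed the test, and what the reads assigned to these 2 genes come from was not tested.

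Ppargc1b, a coactivator related to Ppargc1a, was the 1 regulator of mitochondrial biogenesis with a positive fold change. It had 2.37 and 3.64 TPM in KspCre DKO kidneys, against 1.21, 2.25 and 1.28 TPM in control kidneys (limma adjusted p = 0.626). Tfb1m, a methyltransferase that modifies the small mitochondrial rRNA, had 5.95 and 7.67 TPM in KspCre DKO kidneys, against 3.30, 3.09 and 2.44 TPM in control kidneys, higher in 2 of 2 libraries (limma adjusted p = 0.365).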
